A study of Saccharomyces cerevisiae with 7 samples.

Results

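The genes described here are 81 of the 337 budding yeast genes with a readthrough index (RTI): those that are not ribosomal protein genes and whose RTI in wild type (WT) cells was lowest. They were chosen by their measured values, as the genes whose mean RTI over WT replicates 1 to 3 was under 0.005. Ribosomal protein, core histone and ergosterol synthesis genes and a short list of other named genes were left out by name, which removed 46 of the 127 genes under the limit. The RTI is the number of GRO-seq reads from 50 to 500 nt after the mRNA 3' end divided by the number in the mirror window before it. A value under 0.005 thus means fewer than 0.005 reads in the window after the 3' end for each read in the window before it. Both windows have the same length. Of the 80 genes found in the R64 annotation, 18 have a coding span under 500 nt. For such genes the window before the 3' end can reach beyond the coding region, so their RTI compares less well with that of longer genes.

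GRO-seq (global run-on sequencing) maps engaged RNA polymerases by sequencing RNA that they extend in permeabilised cells. The study compared WT cells with the sua7-1 mutant of TFIIB, a general transcription factor of RNA polymerase II, to ask whether TFIIB acts in termination. Both strains are in the BY4733 background, which carries deletions of the marker genes HIS3, TRP1, LEU2, MET15 and URA3, and both were grown at 30 °C in YPD to an A600 of 0.8 before a 5 min run-on with BrUTP. The table holds 3 sua7-1 libraries (replicates 2, 3 and 4) and 4 WT libraries (replicates 1 to 4), and the paper's methods, which state 3 biological replicates per strain, do not say which WT libraries these are. SUA7, the TFIIB gene, is not among the 337 genes, so the allele could not be checked in these values.

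At the end of a protein-coding gene in yeast, the cleavage and polyadenylation machinery binds AU-rich elements in the nascent RNA, cuts it and adds the poly(A) tail. The RNA still attached to the polymerase is then degraded from its cut end, and the polymerase leaves the template. Where this is slow or fails, polymerases run on into the DNA beyond the poly(A) site.

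No ribosomal protein gene was left among the 81, and 16 of them belong to none of 21 functional lists. By these lists, which are not complete, the largest groups were components of the secretory pathway (10 genes), chaperones (8), cell wall and secreted proteins (8) and mitochondrial proteins (6). In the R64 annotation 80 of the 81 genes were found by systematic name, the exception being YAL004W. The 80 genes lie on 15 of the 16 chromosomes, 36 of them on the forward strand. The mean WT RTI, on which they were selected, had a median of 0.00203 over the 81 genes, and 37 genes were listed at 0 in at least 1 of WT replicates 1 to 3. An RTI was listed in all 3 sua7-1 libraries for 71 genes and in only 2 for the other 10, of which 5 lacked replicate 2 and 5 lacked replicate 3. WT replicate 4 gave a value for only 6 of the 81 genes. The deposited values are ratios without read numbers, so how deeply each library was read is not known, and counting intervals cannot be given.

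The limit did not fall in a gap between genes. Just inside it were RPG1, which encodes a subunit of initiation factor eIF3, with a WT mean of 0.00483, SAM1, an S-adenosylmethionine synthetase gene, with 0.00488, and SEC61, which encodes the pore of the ER translocon, with 0.00496. Just outside were GAS1, a cell wall glucanosyltransferase gene, with 0.00515, SHM2, which encodes serine hydroxymethyltransferase, with 0.00547, and YLR285C-A with 0.00574. In the sua7-1 mutant the 3 genes inside had means of 0.0468, 0.00931 and 0.0505, and the 3 outside had means of 0.0154, 0.0604 and 0.0427. The genes nearest the limit therefore overlapped in the mutant, while the sets as wholes differed in range. Of the 160 genes of the same kind at or above the limit, 97 (60.6%) had a sua7-1 mean of 0.1 or more and 0 had one under 0.005. Of the 81 genes, 2 had a mean of 0.1 or more and 11 had one under 0.005.

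The spread of the 81 genes in the mutant, whose libraries took no part in the choice, ran from 0 to a mean of 0.161. Over the genes, sua7-1 replicate 2 had a median RTI of 0.00915, replicate 3 one of 0.0294 and replicate 4 one of 0.0189. In WT replicates 1, 2 and 3 it was 0.00328, 0.000935 and 0.00103. Every sua7-1 library median was above every WT library median, although the WT side of this contrast was used to choose the genes. Averaged over the sua7-1 libraries, the median of the genes was 0.0192 ± 0.0101 (SD, n = 3). For the other 256 genes this average was 0.0952 ± 0.0305, and the median of the 81 genes was below that of the others within each of the 3 sua7-1 libraries. In these bulk cultures, a higher ratio in every cell and a much higher ratio in some cells cannot be told apart.

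**Figure D1:**
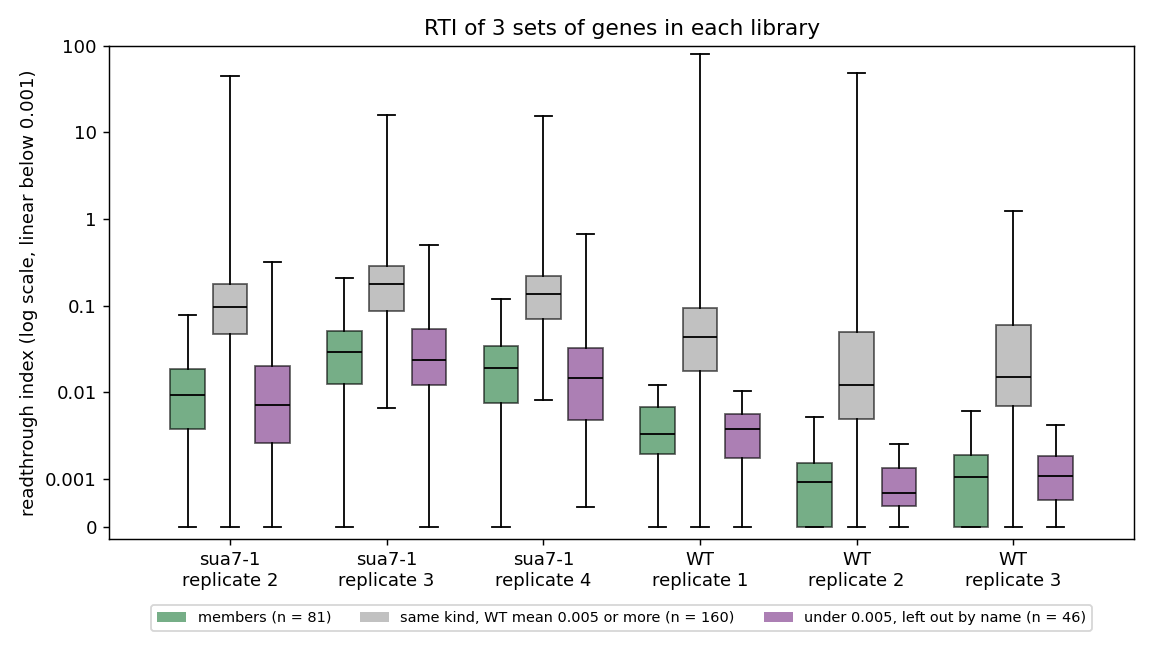
RTI by library (log scale, linear below 0.001) for the 81 genes (members, green), the 160 genes of the same kind with a WT mean of 0.005 or more (grey) and the 46 genes under the limit that were left out by name (purple). Boxes span the quartiles with the median as a line, and whiskers reach the lowest and highest gene. In each sua7-1 library the green and purple medians are far below the grey one, which has a mean over libraries of 0.136.

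The mutant values were spread over all ranges. Because the choice limited the WT means, this spread cannot show whether the genes shifted together. The sua7-1 mean was under 0.005 for 11 genes, from 0.005 to 0.01 for 16, from 0.01 to 0.02 for 16, from 0.02 to 0.05 for 30 and from 0.05 to 0.1 for 6, and it was 0.1 or more for 2. Among the other 256 genes 127 (49.6%) had a sua7-1 mean of 0.1 or more. Library by library, 46.1%, 84.2% and 70.4% of the 81 genes had an RTI of at least 0.01 in replicates 2, 3 and 4, against 87.0%, 94.4% and 91.4% of the other genes. An RTI of at least 0.05 was listed for 2.63%, 27.6% and 16% of the 81 genes, against 57.6%, 78.3% and 72.3% of the others. The 46 low genes that were left out by name had sua7-1 library medians of 0.00706, 0.0232 and 0.0143 in replicates 2, 3 and 4, each below that of the 81 genes in the same library.

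The 3 mutant libraries ordered the genes alike but at different levels. Of the 71 genes with all 3 values, 58 were highest in replicate 3 and 52 (73.2%) had the order replicate 3, replicate 4, replicate 2. The same order was found in 73.6% of the 231 other genes with 3 values. The RTI in replicate 3 had a median ratio of 2.67 to that in replicate 2, and the median coefficient of variation over the 3 libraries was 55.4%, against 37.2% for the other genes. Spearman correlations across the 81 genes, described here with no test, were 0.85 to 0.89 between sua7-1 libraries (71 to 76 genes) and 0.22 to 0.59 between WT replicates 1 to 3 (79 to 80 genes). Over all genes of the table they were 0.93 to 0.96 between sua7-1 libraries and 0.85 to 0.91 between these WT libraries. The choice limited the WT means of the 81 genes, so their WT correlations cannot be set against the sua7-1 ones. WT mean and sua7-1 mean had a Spearman correlation of 0.57 over the 81 genes, which share their libraries, and of 0.81 over all genes. WT replicate 1 was the highest of WT replicates 1 to 3 in 62 of 79 genes.

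Every sua7-1 value was 0.005 or more for 54 of the 81 genes and under 0.005 for 7, and the other 20 had values on both sides. A value of 0 in at least 1 sua7-1 library was listed for 11 genes, HRI1 among them. The 10 genes with the highest sua7-1 means held 37.9% of the sum of all 81 means.

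**Figure D2:**
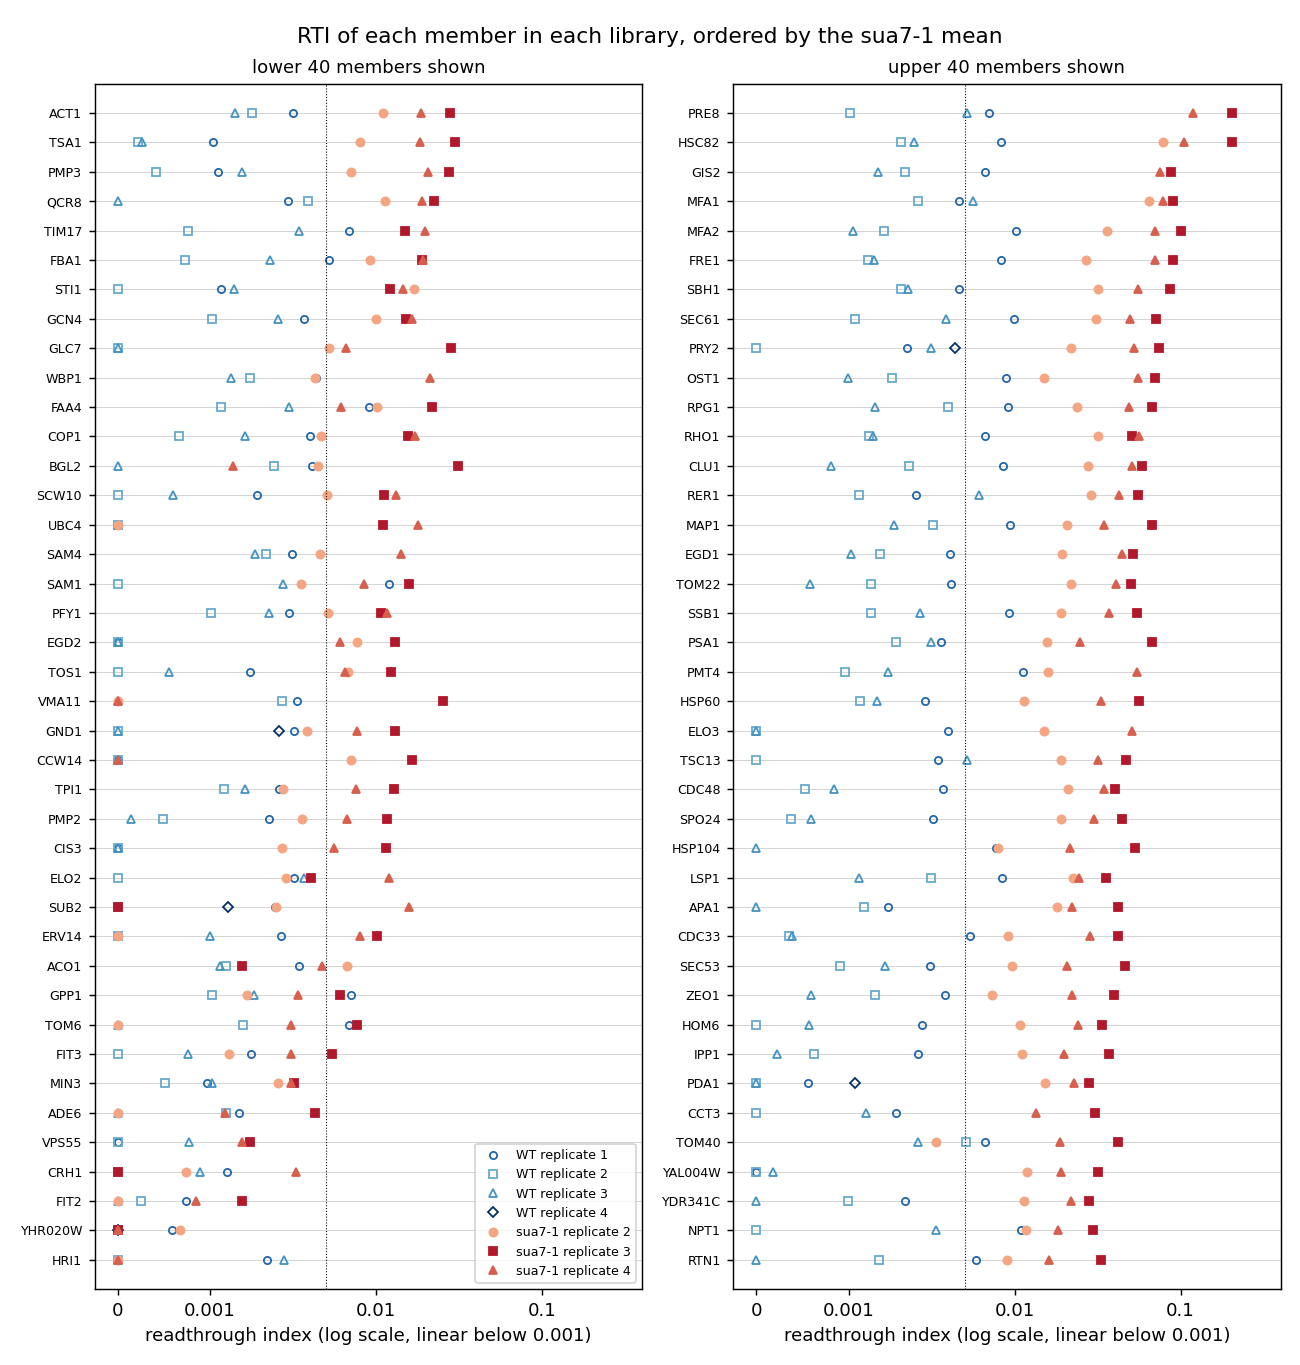
RTI of 80 of the 81 genes (rows, ordered by sua7-1 mean) in each library on a log scale that is linear below 0.001. Filled red points are sua7-1 replicates, open blue points are WT replicates, and the dotted line marks 0.005. From the lowest rows to the top the red points run from 0 to 0.205, while the blue points, on which the genes were chosen, stay under 0.012.

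Of the 10 genes with the highest sua7-1 means, PRE8 and HSC82 stood above the rest. PRE8, which encodes an alpha-type subunit of the proteasome core, had an RTI of 0.204 in sua7-1 replicate 3 and 0.119 in replicate 4, while WT replicates 1, 2 and 3 gave 0.00703, 0.00102 and 0.00515. It has no value in sua7-1 replicate 2, the library with the lowest values. HSC82, a gene for the constitutive cytosolic chaperone of the Hsp90 family, had 0.0780, 0.205 and 0.105 in the sua7-1 replicates, here and in what follows in the order 2, 3 and 4, while WT replicates 1, 2 and 3 gave 0.00824, 0.00207 and 0.00249. For both genes every sua7-1 value was above every WT value, and their order depended on the library. Reads of HSC82 may be shared with its near-identical paralog HSP82, so its values are uncertain. Means over the listed values were 0.161 ± 0.0602 (SD, n = 2) for PRE8 and 0.129 ± 0.0671 (SD, n = 3) for HSC82.

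GIS2, which encodes a zinc-knuckle protein that binds mRNAs, had 0.0882 in sua7-1 replicate 3, 0.0751 in replicate 4 and no value in replicate 2, beside 0.00667, 0.00220 and 0.00150 in WT. FRE1, a plasma membrane metal reductase gene, had 0.0270, 0.0898 and 0.0706 in sua7-1 and 0.00832, 0.00131 and 0.00142 in WT. In both genes the strains did not overlap, and replicate 3 was the highest sua7-1 library. By their sua7-1 means, MFA1 and MFA2, which encode the precursors of the a-factor mating pheromone, lay between GIS2 and FRE1.

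MFA1 had 0.0644, 0.0895 and 0.0785 in sua7-1 and 0.00462, 0.00263 and 0.00563 in WT. MFA2 had 0.0359, 0.101 and 0.0697 in sua7-1 and 0.0102, 0.00163 and 0.00106 in WT. The sua7-1 values of MFA1 lay within a narrow range (0.0775 ± 0.0126, SD, n = 3) and those of MFA2 in a wider one (0.0688 ± 0.0325), and neither overlapped with WT. The means of GIS2, MFA1, MFA2 and FRE1 differed from each other by less than the SD of MFA2. The place of GIS2 depended on its missing library: over replicates 3 and 4 alone its mean of 0.0816 was below those of MFA2 (0.0853) and MFA1 (0.0840).

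Genes of the secretory pathway and a gene for a secreted protein completed the high end. SBH1, which encodes the small beta subunit of the ER translocon, had 0.0320, 0.0864 and 0.0558 in sua7-1 and 0.00466, 0.00206 and 0.00227 in WT. SEC61, the pore subunit of the same complex, had 0.0309, 0.0713 and 0.0493 in sua7-1 and 0.00994, 0.00110 and 0.00385 in WT. Both translocon genes were low in sua7-1 replicate 2 and high in replicate 3, and neither strain overlapped the other. OST1, which encodes a subunit of oligosaccharyltransferase, had 0.0152, 0.0700 and 0.0556 in sua7-1 and 0.00894, 0.00182 and 0.000997 in WT. PRY2, a gene for a secreted sterol-binding protein, had 0.0219, 0.0738 and 0.0527 in sua7-1, and 0.00226, 0, 0.00313 and 0.00437 in WT replicates 1 to 4. The gap between strains was narrowest for OST1, where WT replicate 1 came close to sua7-1 replicate 2.

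At the low end the sua7-1 values were close to the WT values, and for 8 of the 10 lowest genes the strains overlapped. These genes have the lowest sua7-1 means among genes with a WT mean under 0.005, so this closeness follows in part from how they were taken. Over all 337 genes, 78.3% had every sua7-1 value above every WT value. HRI1 was listed at 0 in sua7-1 replicates 2 and 4, its only mutant values, and had 0.00221, 0 and 0.00278 in WT replicates 1, 2 and 3. It was the only one of the 81 genes with a lower mean in sua7-1 than in WT. YHR020W, which encodes prolyl-tRNA synthetase, had 0.000675, 0 and 0 in sua7-1 and 0.000589, 0, 0 and 0 in WT replicates 1 to 4. HRI1 was thus above 0 only in WT libraries, and YHR020W only in 1 library of each strain.

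FIT2 and FIT3, genes for cell wall mannoproteins that retain siderophore iron, face each other on chromosome XV with 448 nt between their stop codons, the only facing pair among the genes found in R64. FIT2 had 0, 0.00157 and 0.000850 in sua7-1 and 0.000740, 0.000252 and 0 in WT replicates 1, 2 and 3. FIT3 had 0.00131, 0.00543 and 0.00309 in sua7-1 and 0.00177, 0 and 0.000759 in WT. In both genes replicate 3 was the highest sua7-1 library and replicate 2 lay within the WT values. CRH1, a gene for a chitin transglycosylase of the cell wall, had 0.000745, 0 and 0.00329 in sua7-1 and 0.00126, 0 and 0.000887 in WT, so that only replicate 4 was above the WT values.

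VPS55, which acts in transport from late endosomes to the vacuole, had 0.00173 in sua7-1 replicate 3, 0.00156 in replicate 4, no value in replicate 2, and 0, 0 and 0.000771 in WT. MIN3 had 0.00255, 0.00320 and 0.00308 in sua7-1 and 0.000973, 0.000507 and 0.00103 in WT. Of the 10 lowest genes only VPS55 and MIN3 had strains that did not overlap. The sua7-1 values of MIN3 were close to each other (0.00295 ± 0.000346, SD, n = 3). ADE6, an enzyme gene of purine synthesis, had 0, 0.00426 and 0.00124 in sua7-1 and 0.00150, 0.00126 and 0 in WT. TOM6, which encodes a small subunit of the translocase of the mitochondrial outer membrane, had 0, 0.00773 and 0.00308 in sua7-1 and 0.00685, 0.00158 and 0 in WT. GPP1, a glycerol-phosphate phosphatase gene, had 0.00167, 0.00611 and 0.00337 in sua7-1 and 0.00711, 0.00103 and 0.00183 in WT. In ADE6, TOM6 and GPP1 the strains overlapped, and in GPP1 WT replicate 1 was the highest of all libraries.

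**Figure D3:**
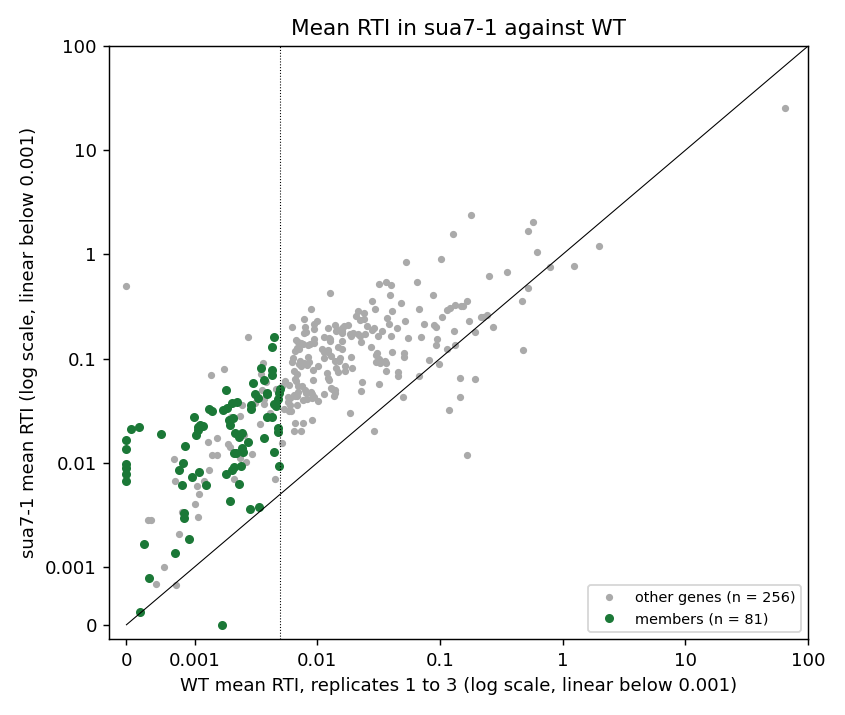
Mean RTI in sua7-1 (vertical axis, libraries with a value) against mean RTI in WT replicates 1 to 3 (horizontal axis) for the 81 genes (green) and the other 256 genes (grey), both axes on a log scale that is linear below 0.001. The solid line marks equal values and the dotted line the limit of 0.005; 80 green points lie above the solid line and 1, HRI1, below it.

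AU-rich sequences after the stop codon were looked at because efficiency elements of yeast poly(A) sites are of the TATATA kind. The motif TATATA, which is its own reverse complement and was therefore searched on one strand, occurred within 250 nt after the stop codon in 48 of the 80 genes found (60.0%), in 59.4% of the other genes of the table and in 52.4% of the 6002 protein-coding genes of R64. The window around the first match is shown here for genes of the high and the low end of the mutant range, from the RefSeq R64 sequence, 5' to 3' on the coding strand, with the motif in capitals. PRE8, HSC82, GIS2 and MFA1 are from the high end and HRI1, MIN3, FIT3 and TOM6 from the low end.
PRE8: aagccaattgtgTATATAacttacataacc
HSC82: gccttcatgtttTATATAttatataaattt
GIS2: acatatttaatcTATATAactaacctttat
MFA1: aagtaactatatTATATAaaatattttgat
HRI1: acctatgggatcTATATAgtatttttataa
MIN3: aaaaggaaagttTATATAcacttaaaggaa
FIT3: taagtatgtatgTATATAtactgtttcaag
TOM6: ttcacttacctgTATATAtattggtttttg

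The windows of the high end are chrXIII:85906-85935 (minus strand) for PRE8, chrXIII:634484-634513 (plus) for HSC82, chrXIV:167094-167123 (minus) for GIS2 and chrIV:1385396-1385425 (plus) for MFA1. Those of the low end are chrXII:731608-731637 (plus) for HRI1, chrXIII:625964-625993 (plus) for MIN3, chrXV:1060305-1060334 (minus) for FIT3 and chrXV:414067-414096 (plus) for TOM6. The motif began 64, 24, 218 and 122 nt after the stop codon in PRE8, HSC82, GIS2 and MFA1, and 61, 79, 119 and 42 nt after it in HRI1, MIN3, FIT3 and TOM6. Over the whole of each end, 9 of the 10 highest genes had a match, which began 17 to 225 nt after the stop codon (median 122 nt), and 6 of the 10 lowest, with a start at 1 to 124 nt (median 70.0 nt). These shares and distances are descriptions of few genes. It occurred in 27 of the 40 genes with the higher sua7-1 means and in 21 of the 40 with the lower ones. A second motif, AATAAA on the coding strand, was found in 48.8% of the 80 genes, 42.2% of the other genes and 35.4% of all R64 genes. The 250 nt were 70.4% A and T at the median in the 80 genes and 70.4% in the others. A match is a description of the letters and not of a site in use.

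The position of the neighbours was another property that the choice did not use. The next gene downstream was on the opposite strand, pointing towards the gene, for 71 of the 80 genes (88.8%), against 72.9% of the other genes of the table and 52.2% of R64 genes. The authors' filter on the distance to the next gene of the same strand favours this, so the share in R64 is not a like comparison. A same-strand gene began within 500 nt for 8.46% of the table's genes found in R64, against 31.7% of R64 genes. An opposite-strand gene lay within 500 nt of the stop codon for 35 of the 40 genes with the higher sua7-1 means and 26 of the 40 with the lower means. An intron in the coding region was found in 4 genes (5.00%), against 21.1% of the other genes and 5.30% of R64 genes. The other genes include ribosomal protein genes, which the choice removed by name, so their share is not a like comparison. The coding span had a median of 984 nt, against 1042 nt in the other genes, and 18 of the 80 genes had a coding span under 500 nt. The next gene on the same strand began within 500 nt of the stop codon for 3 genes, PDA1 (341 nt), GND1 (314 nt) and MIN3 (451 nt), so that the downstream window of their RTI reaches into that gene. That window is counted from the mRNA 3' end and not from the stop codon. It may therefore also reach a same-strand gene somewhat further away, as for HRI1 (530 nt) and RER1 (597 nt). These shares are descriptions, since genes are not replicates, and their relation to the RTI was not tested.

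The functional groups differed in how far their genes spread in the mutant. Group counts, for the 81 genes and for the table, are of listed genes only, and the lists are not complete. The mitochondrial and cell wall lists hold no gene that was left out by name, though CIT1 and ECM33 are in the table. For chaperones, 8 of the 11 listed genes in the table belong to the 81. Their sua7-1 means ran from 0.00894 to 0.129 with a median of 0.0305. All 8 were called higher in sua7-1, as were 11 of 11 in the table. A call came from limma, fitted to log2(RTI + 0.002) of all 337 genes, and needed an adjusted p (Benjamini-Hochberg) under 0.05 together with a change of more than 1 on the log2 scale. By this rule 75.1% of all genes were called higher. HSC82 was the highest chaperone gene and EGD2 the lowest. EGD2, which encodes the alpha subunit of the nascent polypeptide-associated complex, had 0.00772, 0.0130 and 0.00610 in sua7-1 and was listed at 0 in WT replicates 1, 2 and 3, so that no fold is given. The contrast with WT was used in choosing the genes, so nothing is read from the counts of calls. Reads of SSB1 may be shared with its near-identical paralog SSB2.

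The 10 secretory pathway genes, of 18 in the table, had a median sua7-1 mean of 0.0273, and 8 of them were called higher (14 of 18 in the table). The highest was SBH1 and the lowest ERV14, which encodes a cargo receptor of COPII vesicles and had 0, 0.0102 and 0.00797 in sua7-1 and 0.00270, 0 and 0.000995 in WT. ERV14 overlapped with WT only through its value of 0 in replicate 2. The 8 cell wall and secreted protein genes, of 17 listed genes in the table, had the lowest median of the groups with at least 3 genes, 0.00817. Their WT means also had the lowest median of these groups, 0.000741. Of the 8 genes, 5 were called higher (11 of 17 in the table). FIT3 is in no list and is not counted here. Their range was wide, from FIT2 with a mean of 0.000806 to PRY2 with 0.0495.

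Of 12 listed mitochondrial protein genes in the table, 6 belong to the 81, with a median sua7-1 mean of 0.0174. Of these 6, 3 were called higher (8 of 12 in the table). TOM6 was the lowest, and the highest was TOM22, the gene of a receptor subunit of the same translocase, with 0.0220, 0.0503 and 0.0407 in sua7-1 and 0.00413, 0.00137 and 0.000577 in WT. These genes of 1 complex thus lay at both ends of the group: the strains overlapped in TOM6 and not in TOM22. Of 12 glycolysis and fermentation genes, 4 belong to the 81, with a median of 0.0117, and 2 were called higher (7 higher and 1 lower of the 12). GPP1 was the lowest of them and PDA1, which encodes a subunit of pyruvate dehydrogenase, the highest.

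In smaller groups the spread was narrower for some. Among the 4 lipid synthesis genes (of 6, median 0.0227, 2 called higher, 3 of 6 in the table), the fatty acid elongase gene ELO2 had 0.00285, 0.00404 and 0.0120 in sua7-1 and 0.00320, 0 and 0.00368 in WT. ELO3, another elongase gene, had 0.0151 in sua7-1 replicate 2, 0.0511 in replicate 4, no value in replicate 3, and 0.00395, 0 and 0 in WT. The strains overlapped in ELO2 and not in ELO3. Of the 3 genes for proteasome and ubiquitin functions (of 12), PRE8 was the highest and UBC4, a ubiquitin-conjugating enzyme gene, the lowest, with 0, 0.0111 and 0.0180 in sua7-1 and 0 in WT replicates 1, 2 and 3.

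Among the 3 transporter and plasma membrane genes (of 12), PMP2, which encodes a small proteolipid of the plasma membrane proton pump, had 0.00359, 0.0116 and 0.00669 in sua7-1 and 0.00227, 0.000487 and 0.000146 in WT. LSP1, a gene of the eisosome, a plasma membrane domain, had 0.0226, 0.0356 and 0.0244 in sua7-1 and 0.00846, 0.00315 and 0.00116 in WT. Neither gene overlapped between strains, and LSP1 was higher than PMP2 in each sua7-1 library. Of the 3 genes for the pentose phosphate pathway and sugar nucleotide synthesis (of 5), PSA1, the GDP-mannose pyrophosphorylase gene, was the highest, with 0.0157, 0.0674 and 0.0247 in sua7-1 and 0.00359, 0.00192 and 0.00315 in WT. GND1, a phosphogluconate dehydrogenase gene, was the lowest.

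**Figure D4:**
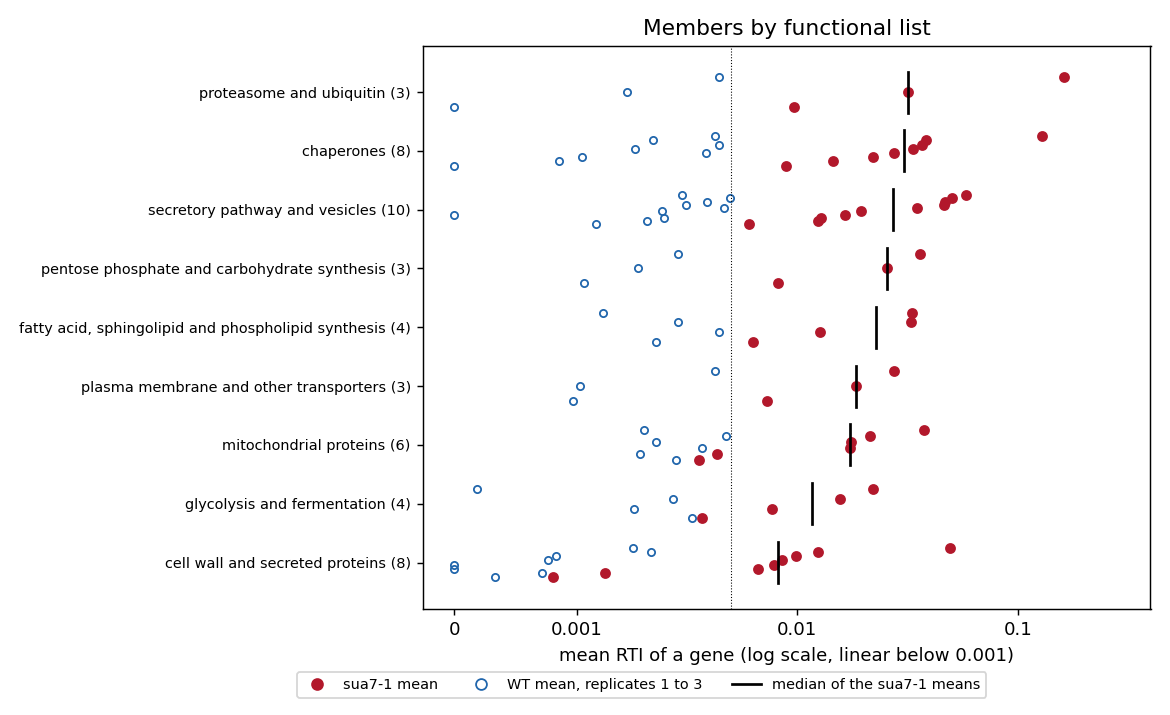
Mean RTI of each gene (horizontal axis, log scale, linear below 0.001) for the functional groups with at least 3 of the 81 genes, with the number of genes in brackets. Filled red points are sua7-1 means, open blue points are means of WT replicates 1 to 3, the black line is the median of the sua7-1 means, and the dotted line marks 0.005. The group medians run from 0.00817 for cell wall and secreted proteins to 0.0320 for proteasome and ubiquitin genes.

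Over all 81 genes, 80 (98.8%) had a higher mean in sua7-1 than in WT, against 94.7% of all 337 genes. Limma called 59 of the 81 higher (72.8%) and none lower, against the 75.1% of all genes. The 22 genes not called include all 10 genes of the low end, but with a pseudocount of 0.002 a gene whose sua7-1 mean is under 0.002 cannot pass the limit on the log2 fold change. With a pseudocount of 0.0005 MIN3 was called higher, with a log2 fold change of 1.38 and a limma adjusted p of 0.037. Every sua7-1 value was above every WT value in 61 genes (75.3%), against 78.3% of all genes. The median log2 fold change on the log2(RTI + 0.002) scale was 2.41 for the 81 genes and 2.44 for all genes. For the 76 genes with a WT value above 0, the ratio of the sua7-1 to the WT mean had a median of 9.38 and quartiles of 4.64 and 18.1. These values use the libraries that chose the genes and describe them only.

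Dividing each library by its median RTI takes out, by construction, any shift between strains that most genes share, and compares each gene with the rest of its library. With this scaling the median log2 fold change went from 2.44 to -0.20 over all genes and from 2.41 to 0.34 over the 81. On that scale 8 of the 81 genes were called higher and 1 lower, and 30 had a log2 fold change under 0. Those called higher included EGD2, YAL004W, PDA1, TSA1, SPO24, CDC48 and HSC82, and the 1 called lower was GPP1, with a log2 fold change of -1.68. Over all 337 genes 22 were called higher and 55 lower on that scale. Of the 4 largest groups, the median log2 fold change on that scale was 0.80 for chaperones, 0.48 for cell wall and secreted proteins, 0.34 for the secretory pathway and -0.92 for mitochondrial proteins. The WT libraries that chose the genes also enter this scaled fit. A higher scaled fold change for the 81 than for all genes is therefore favoured by the choice itself. The scaled medians and calls describe the genes only.

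Libraries that took no part in a choice of genes allowed comparisons independent of it. WT replicate 4, which the choice did not use, has values for 6 of the 81 genes, and all 6 were under 0.005, against 12.5% of the 32 other genes with a value there. PDA1 had 0.0153, 0.0280 and 0.0229 in sua7-1, 0.000562, 0 and 0 in WT replicates 1 to 3 and 0.00110 in WT replicate 4. All sua7-1 values of PDA1 and of PRY2 were above WT replicate 4. GND1 had 0.00384, 0.0130 and 0.00766 in sua7-1, 0.00323, 0 and 0 in WT replicates 1 to 3 and 0.00259 in WT replicate 4, so all its sua7-1 values were also above that library. SUB2, an RNA helicase gene that acts in mRNA export, had 0.00248, 0 and 0.0158 in sua7-1, 0.00245, 0 and 0 in WT replicates 1 to 3 and 0.00129 in WT replicate 4, and overlapped.

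In the limma fit of the 3 sua7-1 libraries against WT replicate 4 alone, over the 38 genes with a value there, 28 genes (73.7%) and 3 of the 6 were called higher. PDA1 had a log2 fold change of 2.92 with an SE of 0.74 and a limma adjusted p of 0.00065 and PRY2 one of 2.86 with an adjusted p of 0.00074. GND1, at 1.04 with an adjusted p of 0.20, and SUB2, at 0.72 with an adjusted p of 0.36, missed the threshold, as did YHR020W, which was listed at 0 in that library. The fit assumes that the lone WT library varies like the sua7-1 libraries.

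The choice was then repeated with each of WT replicates 1 to 3 left out in turn, and the left-out library was read for the genes chosen on the other 2. Without replicate 3, the rule took 68 genes, and 91.2% of them were under 0.005 in replicate 3, against 41.8% of the other genes. Without replicate 2 it took 70 genes, of which 69 had a value in replicate 2, and 95.7% of these were under 0.005, against 47.5%. Without replicate 1, the WT library with the highest values, it took 112 genes, and of the 111 with a value in replicate 1 only 49.5% were under 0.005, against 15.4%. A low RTI thus recurred for most of the chosen genes in WT replicates 2 and 3 and for 55 of 111 in WT replicate 1.

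Against the left-out library, limma called 50 of 68 genes (73.5%) higher in sua7-1 for WT replicate 3, where 73.8% of all genes were called. It called 48 of 69 (69.6%) for WT replicate 2, where 76.3% of all genes were called, and 1 of the 69 lower, GSR1, which is not among the 81 and was listed at 0.333 in WT replicate 2. For WT replicate 1 it called 52 of 111 (46.8%), against 40.9% of all genes. The share called among genes chosen for a low WT RTI was near that of the table in these fits, lower for replicate 2 and higher for replicate 1. Without sua7-1 replicate 4, fewer genes were called against WT replicates 1, 2 and 3, and most calls against WT replicate 1 were lost. Fewer genes were also tested (98, 62 and 59). Each such fit set 2 sua7-1 libraries against 1 WT library, and the share called over all genes is not given for it. The drop is therefore not read as a property of these genes or of that library.

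Of the genes that were listed at 0 in every WT library with a value, 5 in all, EGD2, UBC4 and 3 others had mutant values above 0 in at least 2 libraries. CIS3, a gene for a covalently bound cell wall protein, had 0.00273, 0.0115 and 0.00562 in sua7-1. CCW14, another cell wall protein gene, had 0.00704, 0.0164 and 0. GLC7, which encodes the catalytic subunit of type 1 protein phosphatase, had 0.00524, 0.0283 and 0.00662 and no value in WT replicate 1. Replicate 3 was the highest of the sua7-1 libraries in these 3 genes, and only CCW14 overlapped with WT, through its value of 0 in replicate 4. Because the WT values are 0 and the read numbers are unknown, no fold is given for any of the 5. For the 3 genes just inside the limit, RPG1 had 0.0238, 0.0678 and 0.0488 in sua7-1 and 0.00908, 0.00396 and 0.00145 in WT. SAM1 had 0.00352, 0.0159 and 0.00852 in sua7-1 and 0.0119, 0 and 0.00275 in WT. The strains overlapped in SAM1, which may share reads with its paralog SAM2, and did not in RPG1.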

How the data were processed

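GRO-seq libraries of 3 sua7-1 and 4 WT samples were analysed. The authors removed adapters (cutadapt), mapped reads to S288C (R64; aligner not given in the sources used here) and deposited a ratio per gene and library, the RTI, of the downstream to the upstream window count. By the stated filters, they kept genes with mRNAs of at least 500 nt, at least 500 nt to the nearest downstream gene of their strand and at least 1 read per nt in at least 3 replicates; by the annotation used here, 3 members have such a gene closer to the stop codon. The 168 rows below the main table were not used, nor were the authors' means, ratios of means and p-values. No column lacked a sample. The values of 1 gene of the 81 are counted but not reported here.

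The members and the functional lists were chosen with earlier results of these data known. Strains were compared by limma 3.58.1 (R 4.3.3) on log2 values with a pseudocount of 0.002, without covariates, and p-values were adjusted over all genes by Benjamini-Hochberg. The fit was also run on simulated data, and the outcome is not reported here. Other values were computed in Python 3.11.15 with pandas 2.3.3 and numpy 2.4.6. Because separate cultures are not stated for every library, the p-values cover the variation among these samples, possibly technical. Genes were named by rule: the 10 highest and 10 lowest sua7-1 means, every member with a value in WT replicate 4 or listed at 0 in all WT libraries, the 3 genes on each side of the limit, and the extremes of each list with at least 3 members. Any other gene given by name was chosen after its values were seen. Alternatives were pseudocounts of 0.0005 and 0.01, a filter on missing values, other scalings and limits, zeros taken as missing, the trend and robust settings of limma, a block for the replicate number, and leaving out single libraries.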

Additional observations from a re-analysis of the deposited data

Results flagged for a closer look

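In YHR020W a single WT library stood apart from the other 3 WT libraries. It had an RTI of 0.000589 in WT replicate 1 and was listed at 0 in replicates 2 to 4. With the other 3 values at 0, any value above 0 is marked, so the mark says nothing about how rare such a value is. The comparison was made for the members with a value in all 4 WT libraries.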

How the results depend on the processing

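Dividing libraries by their median RTI takes out a shared shift by construction. With libraries divided by their median RTI, 8 of the 81 genes were called higher in place of 59, 1 of 6 against WT replicate 4, and 9, 16 and 19 of the re-chosen genes against WT replicates 1, 2 and 3. The median of the sua7-1 means was then 0.279 in multiples of a library's median, and 13 of 38 named genes went from a log2 fold change above 0 to one below 0, among them GPP1 (-1.68, called lower) and LSP1 (-0.23, called higher before). With a pseudocount of 0.01 the counts against WT replicates 1, 2 and 3 were 31, 27 and 30, and with zeros taken as missing the count against WT replicate 2 was 31. A limit of 0.0025 gave 53 genes, 36 of them called higher, and a limit of 0.01 gave 121 genes, 97 called higher, with a median sua7-1 mean of 0.0312.

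Leaving out each library in turn gave 48 to 66 genes called higher over all libraries, 2 to 4 against WT replicate 4, and 5 to 75, 35 to 52 and 29 to 54 against WT replicates 1, 2 and 3. The choice held 68 to 112 genes, the median of the sua7-1 means was 0.0147 to 0.0239, and 10 to 15 genes had a sua7-1 mean under 0.005. The other alternatives left these counts within 1.5 times of their values.

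The replicate numbers did not pair the libraries: deviations of same-numbered libraries had correlations of 0.134, -0.023 and -0.025, and not every library correlated best with its own number. With a replicate block 60 genes were called higher, 56 of them among the 59. The values are ratios of unknown depth, so differences between low values cannot be set against counting error.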

Other observations

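MFA1 and MFA2, the a-factor precursor genes that are known to be transcribed in a cells, had an RTI in every sua7-1 library and in WT replicates 1 to 3, while the study's methods give the strain background as an alpha mating type. An RTI requires reads in the window before the mRNA 3' end, which for these short genes can reach beyond the coding region. The RTI values cannot say which mating type the cells had, and the difference was not tested.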
